A study of Mus musculus with 15 samples.

Results

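Newly formed oligodendrocytes of the mouse prefrontal cortex (PFC) were examined as the cells that the deposited table of cells places in the clusters named NF Oligo. These were 854 of the 35360 retained cells, 336 of 24822 at P60 and 518 of 10538 at P21. The tissue came from male C57BL/6N mice, given as 8 to 10 weeks old (P60 in the paper) or 3 weeks old (P21), and each P60 library was made from the pooled PFC of 2 mice. At P60 the mice had self-administered saline or cocaine through an intravenous catheter. They were sampled at the end of the maintenance phase (saline libraries 2 and 3, cocaine libraries 1 and 4), at 48 h of withdrawal (saline 5 and 7, cocaine 6 and 8) or at 15 days of withdrawal (saline 11 and 12, cocaine 9 and 10). The 3 P21 libraries came from mice without self-administration, whereas the saline mice also had food restriction, food training and catheter surgery. No library held both ages, and the paper mentions different sequencing technologies in its matching of P21 to P60 cells. Age, these procedures, self-administration and any difference between the sets of libraries cannot be told apart when P21 is set against saline P60. For P21 the methods give 4 mice for 3 libraries, so P21 libraries may share an animal and n = 3 may overstate the independent samples. With P21 libraries 2 and 3 summed, the 91 genes called different between the ages became 47. A label of the tissue names the nucleus accumbens, whereas titles, source names and the paper name the PFC. At P60 the cells were clustered by the authors, who divided the newly formed cells into 9 clusters. At P21 cells received their names from their correlation with the P60 clusters and have no subclusters.

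Newly formed oligodendrocytes stand between the dividing precursor and the cell that wraps axons. A precursor that leaves the cell cycle loses its receptor for platelet-derived growth factor, passes through a short committed stage marked by Bmp4, Neu4 and Gpr17, gains Enpp6 as it begins to extend processes, and then makes the lipids and proteins of the myelin sheath. Many of these cells die before they myelinate, and those that remain lose the transitional genes as they mature. In the cortex they appear in large numbers in the weeks after birth and continue to be made at a lower rate in adults, where Enpp6 is used as a mark of recent differentiation.

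Enpp6, a membrane-bound choline phosphodiesterase, and Bmp4, a secreted ligand of the BMP family that restrains the differentiation of precursors, were used as markers. The cells were taken by the authors' cluster names and not by these genes. In the genome that the authors used (mm9, NCBIM37) Enpp6 (ENSMUSG00000038173) is annotated on chromosome 8 from 48072279 to 48180249 and Bmp4 (ENSMUSG00000021835) on chromosome 14 from 47003195 to 47010344. Among all P60 libraries Enpp6 averaged 0.292 counts per 1000000 UMIs (CPM) in precursors, 1132 ± 151 in newly formed cells (SD, n = 11) and 108 in mature oligodendrocytes. The 250 bases before the start of Enpp6 and of Mobp, a myelin protein gene that separates the latest newly formed cells from the rest, are shown because the SOX proteins of this lineage bind short HMG-box motifs. They are RefSeq sequences of the build GRCm38.p6, and capitals mark ACAAAG or ACAATG on either strand.
Enpp6, chr8:46986637-46986886, plus strand: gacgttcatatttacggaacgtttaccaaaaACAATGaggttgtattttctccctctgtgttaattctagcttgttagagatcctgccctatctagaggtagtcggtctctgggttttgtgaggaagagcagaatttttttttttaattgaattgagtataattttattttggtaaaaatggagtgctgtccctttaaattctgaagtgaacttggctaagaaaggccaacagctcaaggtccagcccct
Mobp, chr9:120149492-120149741, plus strand: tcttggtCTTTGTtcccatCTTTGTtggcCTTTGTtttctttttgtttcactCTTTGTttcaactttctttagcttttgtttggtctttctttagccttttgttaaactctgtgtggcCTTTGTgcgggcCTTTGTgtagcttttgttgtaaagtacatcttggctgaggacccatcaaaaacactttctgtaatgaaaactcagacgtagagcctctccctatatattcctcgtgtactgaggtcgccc
The Enpp6 window held 1 match and the Mobp window held 6. Of 32851 windows of this length, 25.2% held at least 1 match, so a single match is common and marks no site.

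The retained newly formed cells of a library gave between 57376 UMIs (unique molecular identifiers, each standing for 1 captured mRNA molecule) in library 4 and 945806 in P21 library 1, after mitochondrial and ribosomal protein genes were set aside. In the P60 libraries with few cells, 3 UMIs correspond to as much as 52.3 CPM, so low genes were measured coarsely there. The median depth per cell was 3930.5 to 7044 UMIs in P60 libraries and 2326 to 3726.5 in P21 libraries, and the median share of mitochondrial UMIs was 2.59% to 3.02% and 3.50% to 4.03%. Their part in the differences with age was not tested. None of the 854 barcodes was shared between libraries. The authors' coarser class column named 26 of the P21 members otherwise, 11 of them as microglia, and named 36 cells of other clusters as newly formed.

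The levels of the markers are a description, because the P60 cells were clustered on expression and the P21 cells named by correlation with those clusters. The 6 markers of newly formed oligodendrocytes summed to between 3830 and 5760 CPM in each of the 14 libraries with at least 10 such cells. In P21 library 1 they summed to 3830 CPM and the 10 markers of mature oligodendrocytes to 4415 CPM. The mature sum was the lower in every other library. Bmp4 lay between 654 and 1363 CPM and Enpp6 between 810 and 1394 CPM. Pdgfra, the growth factor receptor of precursors, was at or under 17.0 CPM in all but library 4, where it was at 122 CPM from 14 cells. Thinned to 2000 UMIs per cell, 91.7% of the saline cells, 92.2% of the cocaine cells and 88.6% of the P21 cells held a UMI of Bmp4 or Enpp6. Without thinning these shares were 97.4%, 98.9% and 96.3%, at median depths of 5104.5, 4867.5 and 2606.5 UMIs of the genes used, and 105 P21 cells were too shallow to thin. In endothelial cells, used as the level of stray RNA, a UMI of Enpp6 was found in 0.0541%, 0.0586% and 0.167% of thinned cells at median depths of 3891, 3852 and 3377.5 UMIs. Bmp4 was found in 4.38%, 5.39% and 2.06% of them. In thinned newly formed cells the shares were 78.8%, 80.0% and 79.4% for Enpp6 and 61.5%, 70.6% and 61.0% for Bmp4, far above that background.

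Among genes averaging at least 50 CPM in saline newly formed cells, the 15 that stood highest over the next cell type were Steap1, Itgb7, Pycr1, Bmp4, Matn1, Brca1, Fyn, Kif19a, Lrrc42, Tmem108, Rhbdl2, Enpp6, Pik3r3, Ssh3 and Rnd2. They are given as a description, because the cells were clustered on expression. The mean ratio ran from 103 for Steap1 down to 8.92 for Rnd2. That of Steap1 sets 57.4 ± 47.3 CPM (SD, n = 5) against 0.556 CPM in precursors, and over all P60 cells the gene was at 152 CPM in cluster 1, at 56.4 CPM in cluster 6 and at 0 CPM in the other 7 clusters. Fyn, the Src-family kinase that links axonal contact to local synthesis of myelin protein, was at 2904 ± 498 CPM (SD, n = 5) against 148 CPM in precursors and 33.6 CPM in mature cells. Pycr1, an enzyme of proline synthesis, was at 215 ± 42.2 CPM against at most 5.50 CPM elsewhere. Brca1, a DNA repair gene, was at 311 ± 112 CPM against 14.8 CPM in precursors. The cells were not dividing by these markers, since Top2a, which untangles DNA in dividing cells, averaged 0.556 CPM and Mki67 1.82 CPM over P60 libraries, against 132 and 41.5 CPM in precursors.

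Other stage genes were set against the neighbouring cell types. Ptprz1, a receptor phosphatase of precursors, was at 1359 CPM in P60 precursors, 168 in newly formed cells and 6.10 in mature cells. Tcf7l2, a Wnt effector needed for differentiation, averaged 53.1, 575 and 26.4 CPM in the same order. The myelin genes were already on, with Mbp, which compacts the sheath, at 156, 10127 and 10570 CPM. Genes of later stages were at unequal levels. Mal averaged 26.4 CPM in newly formed and 5805 CPM in mature cells, and Aspa, an enzyme of mature oligodendrocytes, 8.19 and 1045 CPM. Mobp, Cryab and Ptgds were well above the precursor level, at 572, 2278 and 1849 CPM in newly formed cells against 22.4, 633 and 273 CPM in precursors and 6726, 7721 and 20932 CPM in mature cells. S100b was higher in newly formed than in mature cells, at 2031 and 279 CPM.

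**Figure D1:**
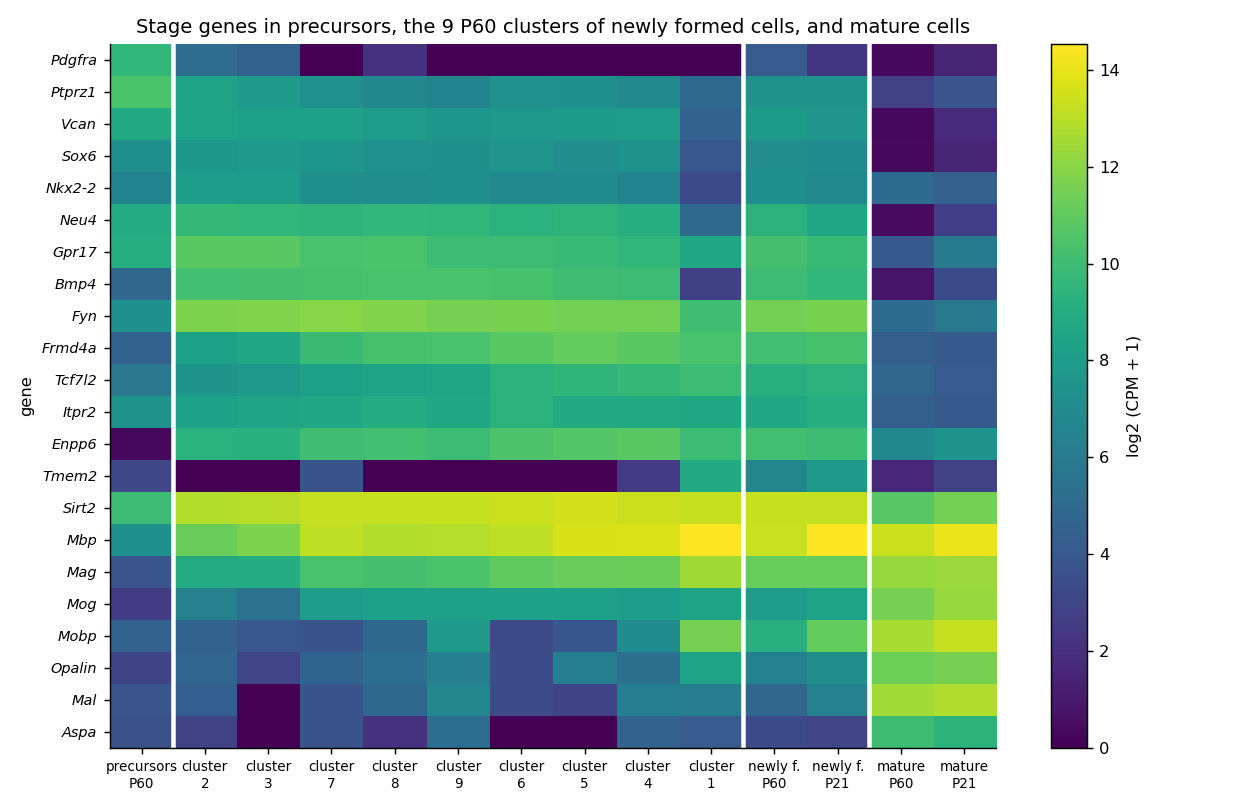
Mean level of stage genes, as log2 (CPM + 1), in P60 precursors, in the 9 P60 clusters of newly formed cells (UMIs pooled over libraries), in newly formed cells by age and in mature oligodendrocytes (columns other than clusters are means over libraries). Clusters 2 and 3 hold the lowest Mbp, at 2368 and 3344 CPM, and cluster 1 holds the lowest Bmp4, at 5.73 CPM, with Mobp at 2962 CPM.

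Among the 9 clusters the same genes ran in an order, which is a description of groups made from these genes and carries no test. Clusters 2 and 3, with 76 and 32 cells, held the most Gpr17, Ptprz1 and Neu4, with Gpr17, a receptor of the committed stage, at 1839.9 and 1819 CPM, Ptprz1 at 325 and 227 CPM and Neu4 at 831 and 792 CPM. Their Enpp6 was at 615 and 601 CPM and their Mag, an adhesion protein of the inner myelin layer, at 483 and 506 CPM. Clusters 4 and 5, with 42 and 27 cells, held the most Enpp6, at 1775 and 1601 CPM, with Mag at 2512 and 2377 CPM and Gpr17 at 750.3 and 903 CPM. Bmp4 was at 1002 to 1203 CPM in these 4 clusters and at 1260 to 1325 CPM in clusters 6 to 9. Clusters 6 to 9 lay between them in Mbp, at 7509.8 to 8940.5 CPM.

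Cluster 1, with 46 cells, differed from the other 8. Bmp4 was at 5.73 CPM and Neu4, a sialidase of the committed stage, at 31.5 CPM, while Enpp6 was still at 995 CPM. Mbp reached 23806 CPM, Mag 5766 CPM and Tcf7l2 1018 CPM. Mobp was at 2962 CPM, whereas the other clusters held 9.40 to 224 CPM. Tmem2, a hyaluronidase of the cell surface, was at 482 CPM there and at most 12.4 CPM in any other cluster. Each cluster drew its cells from 7 to 11 of the 11 P60 libraries with such cells, and none took more than 13 cells from 1 library.

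Newly formed oligodendrocytes took a larger share of the cells at P21. They made up 5.05%, 5.37% and 4.35% of the retained cells in P21 libraries 1 to 3. In the saline P60 libraries they made up 0.861% (library 2), 0% (library 3), 0.730% (library 5), 1.48% (library 7), 1.59% (library 11) and 1.91% (library 12). Every P21 library lay above every saline library. Library 3 held none among 1055 retained cells, which allows a share of up to 0.284% by a floor of 3 counts and up to 0.349% by the exact two-sided 95% binomial interval, both for counting error only. The difference was -3.83 percentage points (P60 saline minus P21), with an exact two-sided permutation p of 0.0119 over 84 arrangements, the smallest p that this design allows. The paper's methods give neurons a higher minimum of genes per cell at P60 and a single minimum for all cells at P21. The part of this filter in the share of retained cells was not tested.

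Within the lineage the difference was larger. Of precursors, newly formed and mature oligodendrocytes together, 36.9%, 61.5% and 56.3% were newly formed at P21. In the saline libraries, in the order 2, 3, 5, 7, 11 and 12, this share was 4.06%, 0%, 5.31%, 13.4%, 18.9% and 18.8%. The groups did not overlap, and the difference was -41.5 percentage points (exact permutation p = 0.0119). P21 library 1 was the lowest of the 3 and held 355 mature cells, where the others held 87 and 106. Precursors numbered 28, 7 and 6 in the P21 libraries. The P21 cells were named by correlation with P60 clusters and the P60 cells by clustering, and the part of this naming in the share was not tested.

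**Figure D2:**
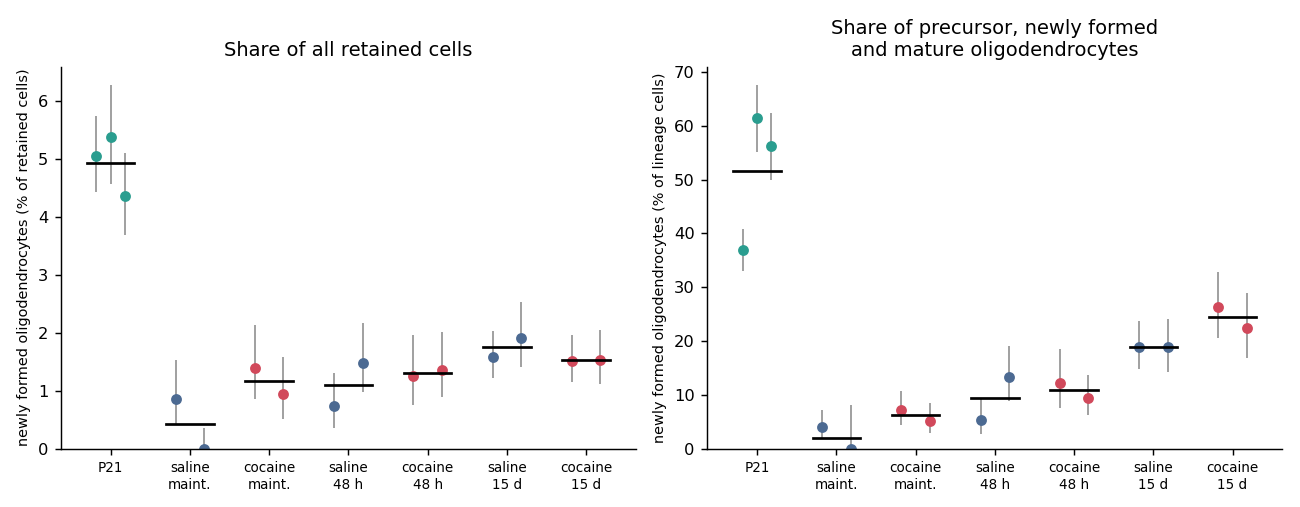
Newly formed oligodendrocytes as a percentage of all retained cells (left) and of precursor, newly formed and mature oligodendrocytes (right), 1 point per library in 7 groups, with exact 95% binomial intervals of each library and a bar at the group mean. The 3 P21 libraries lie at 4.35% to 5.37% of retained cells, above all 12 P60 libraries.

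Cocaine was not accompanied by a detectable change in the share. The 6 cocaine libraries held 0.951% to 1.53% newly formed cells. At maintenance the mean was 1.17% with cocaine and 0.430% with saline, at 48 h 1.31% and 1.11%, and at 15 days 1.53% and 1.75%. The mean difference over the time points was 0.242 percentage points, with an exact permutation p of 0.352 over 216 arrangements within time points. Without library 3 it was 0.0988 points. As a share of the lineage the difference was 3.75 points (exact permutation p = 0.0741). Within the lineage the maintenance libraries of both treatments held 0% to 7.17%, the 48 h libraries 5.31% to 13.4% and the 15-day libraries 18.8% to 26.4%, an order that was not tested.

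Gene expression in newly formed cells differed between saline P60 and P21 in 91 of 4693 genes tested (1.94%), of which 35 were higher at P60 (0.746%) and 56 lower (1.19%). A gene was called when edgeR's quasi-likelihood test on UMIs summed per library gave a Benjamini-Hochberg adjusted p below 0.05 and the change exceeded 1.5-fold, with 5 saline libraries against 3 P21 libraries. For 80 of the 91 the libraries of both ages did not overlap, which held for 9.27% of all genes tested. The median change over all genes was -0.0028 on the log2 scale. Of the called genes, 24 of the higher and 15 of the lower ones also kept the P21 libraries apart from all 11 P60 libraries, cocaine included. These 2 counts are a description, because the genes were called on the saline and P21 libraries among them. The share of all genes tested that were apart in this way is not given. Adjusted p below means this edgeR value, and all changes are P60 saline minus P21. Sums over cells do not separate fewer cells with a gene from less of it per cell.

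None of the 6 stage markers was called, and their median change was 0.18 (4 higher, 2 lower), against -0.0028 over all genes tested. The P21 cells were named by correlation with the P60 clusters, which favours like levels of such markers. The part of this naming in their changes was not tested. Bmp4 was at 1311, 816, 1157, 847 and 794 CPM in saline libraries 2, 5, 7, 11 and 12 and at 654, 896 and 801 CPM at P21. Enpp6 was at 1119, 1394, 1002, 1129 and 962 CPM and at 810, 1196 and 1090.4 CPM. The ages overlapped for both genes, with log2 changes of 0.28 (SE 0.18, adjusted p = 0.508) and 0.07 (SE 0.17, adjusted p = 0.908). Neu4 came closest, at 514 to 791 CPM against 312 to 461 CPM, with a log2 change of 0.72 (SE 0.19, adjusted p = 0.0546), and the ages did not overlap. Against all 11 P60 libraries its adjusted p was 0.0285. None was called among the 7 committed-stage genes tested, with a median change of 0.16 (6 higher, 1 lower), or among the 9 newly formed genes tested, with a median change of -0.42 (1 higher, 8 lower). The lists overlap, since Bmp4, Neu4 and Gpr17 are also committed-stage genes and Enpp6, Tcf7l2 and Itpr2 also newly formed genes. None was called among 17 transcription factors of the lineage, among them Sox10, Olig1 and Olig2, with Nkx2-2, Sox6 and Tcf7l2 shared with the lists above. The same was true of 6 BMP, 5 Wnt and Notch, 21 surface and guidance, 8 receptor and channel and 7 glucocorticoid target genes. Over all genes tested 1.94% were called. Lists this small without a call are near that share, which does not show that their genes were unchanged. Of the 22 cell cycle genes on the list only 3 had enough UMIs to be tested, and none was called.

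Of 22 myelin genes tested, 2 passed the threshold, both lower at P60, and 20 did not, while 1.19% of all genes tested were called lower. The list had a median change of -0.37, with 18 genes lower and 4 higher, against a median of -0.0028 and 50.2% lower over all 4693 genes tested. Mbp was at 8026, 11765 and 6781 CPM in saline libraries 2, 5 and 7, at 13899 and 13378 CPM in libraries 11 and 12, and at 21080.4, 25395 and 24763 CPM at P21. Every P60 library, cocaine included, lay below every P21 library. Its log2 change was -1.17 (SE 0.21, adjusted p = 0.0140). In single cells the median was 76.1 Mbp UMIs per 10000 UMIs in saline cells and 150 in P21 cells. Mbp was also lower at P60 outside the lineage, where excitatory neurons held 64.5 CPM against 168 at P21 and endothelial cells 66.4 CPM against 131, and the part of such stray RNA in the result was not tested.

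Ugt8a, which makes galactosylceramide, the main glycolipid of myelin, was the other called gene. It was at 352, 493.1, 163, 346 and 368 CPM in the saline libraries and at 685, 719 and 715 CPM at P21. The groups were apart, with a log2 change of -1.11 (SE 0.22, adjusted p = 0.0158). With only the cells that lacked a Mobp UMI the adjusted p was 0.193, and without library 11 it was 0.0563. Mag was at 1361 to 3517 CPM in saline libraries and 1486 to 3369 CPM at P21, and the ages overlapped fully. Mobp was the most uneven, with 560, 204, 0, 1059 and 790.4 CPM at P60 against 3489, 1704 and 1486 CPM at P21. Its log2 change of -2.05 had an SE of 0.93 and an adjusted p of 0.370. Thinned to 2000 UMIs, 12.8% of saline and 29.3% of P21 cells held a Mobp UMI, against 3.63% and 3.28% of endothelial cells. Without thinning the shares in newly formed cells were 19.2% and 26.3%. These shares pool the cells of the libraries. By library the thinned shares of newly formed cells were 0% to 20.8% in saline and 21.25% to 35.7% at P21. The 10 markers of mature oligodendrocytes summed to 236 to 1918 CPM in the saline libraries and 2007 to 4415 CPM at P21, and their part in the myelin differences was not tested beyond the fit on cells without a Mobp UMI, in which 58 of the 91 calls were kept.

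Genes of cholesterol synthesis, a lipid that newly forming myelin needs in bulk, gave 3 calls. Of 18 tested, the 3 called were all lower at P60, and 17 of the 18 had a negative change (median -0.63). Over all genes tested 1.19% were called lower and 50.2% had a negative change. Sqle, the squalene epoxidase, was at 160, 272, 81.5, 147 and 131 CPM in saline libraries and at 264, 341 and 236 CPM at P21. Saline library 5 lay within the P21 range and the other 4 below it, and the log2 change was -0.98 (SE 0.24, adjusted p = 0.0412). Cyp51, the lanosterol demethylase, averaged 133 and 245 CPM (adjusted p = 0.0356), with library 2 at 256 CPM inside the P21 range. In cells without a Mobp UMI neither was called, with an adjusted p of 0.916 for Sqle and a log2 change of 0.05 for Cyp51. The calls of Sqle and Cyp51 were each lost in at least 4 of the 8 fits that left out 1 library.

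Genes of the cytoskeleton and of process outgrowth gave 3 calls among 31 tested, all lower at P60, where 1.19% of all genes tested were called lower. The median of the list was -0.09, with 19 lower and 12 higher, against -0.0028 and 50.2% lower over all genes. Tmsb10, an actin-sequestering peptide of growing cells, was at 128, 119, 293, 242 and 193 CPM in saline libraries and at 400, 362 and 508 CPM at P21 (log2 change -1.05, SE 0.22, adjusted p = 0.0180). Marcksl1, a membrane-actin linker, was at 149 to 196 CPM and 231 to 579 CPM (log2 change -1.26, SE 0.29, adjusted p = 0.0395), with P21 library 1 the highest, and without that library its adjusted p was 0.0835. Dpysl2, a tubulin-binding protein of neurite growth, averaged 1255 and 2043 CPM (log2 change -0.75, SE 0.19, adjusted p = 0.0395), and library 2 at 1823 CPM overlapped the P21 range. Tuba1a, the main alpha-tubulin of growing cells, averaged 18699.95 CPM in saline libraries and 13568 CPM at P21 (adjusted p = 0.225).

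**Figure D3:**
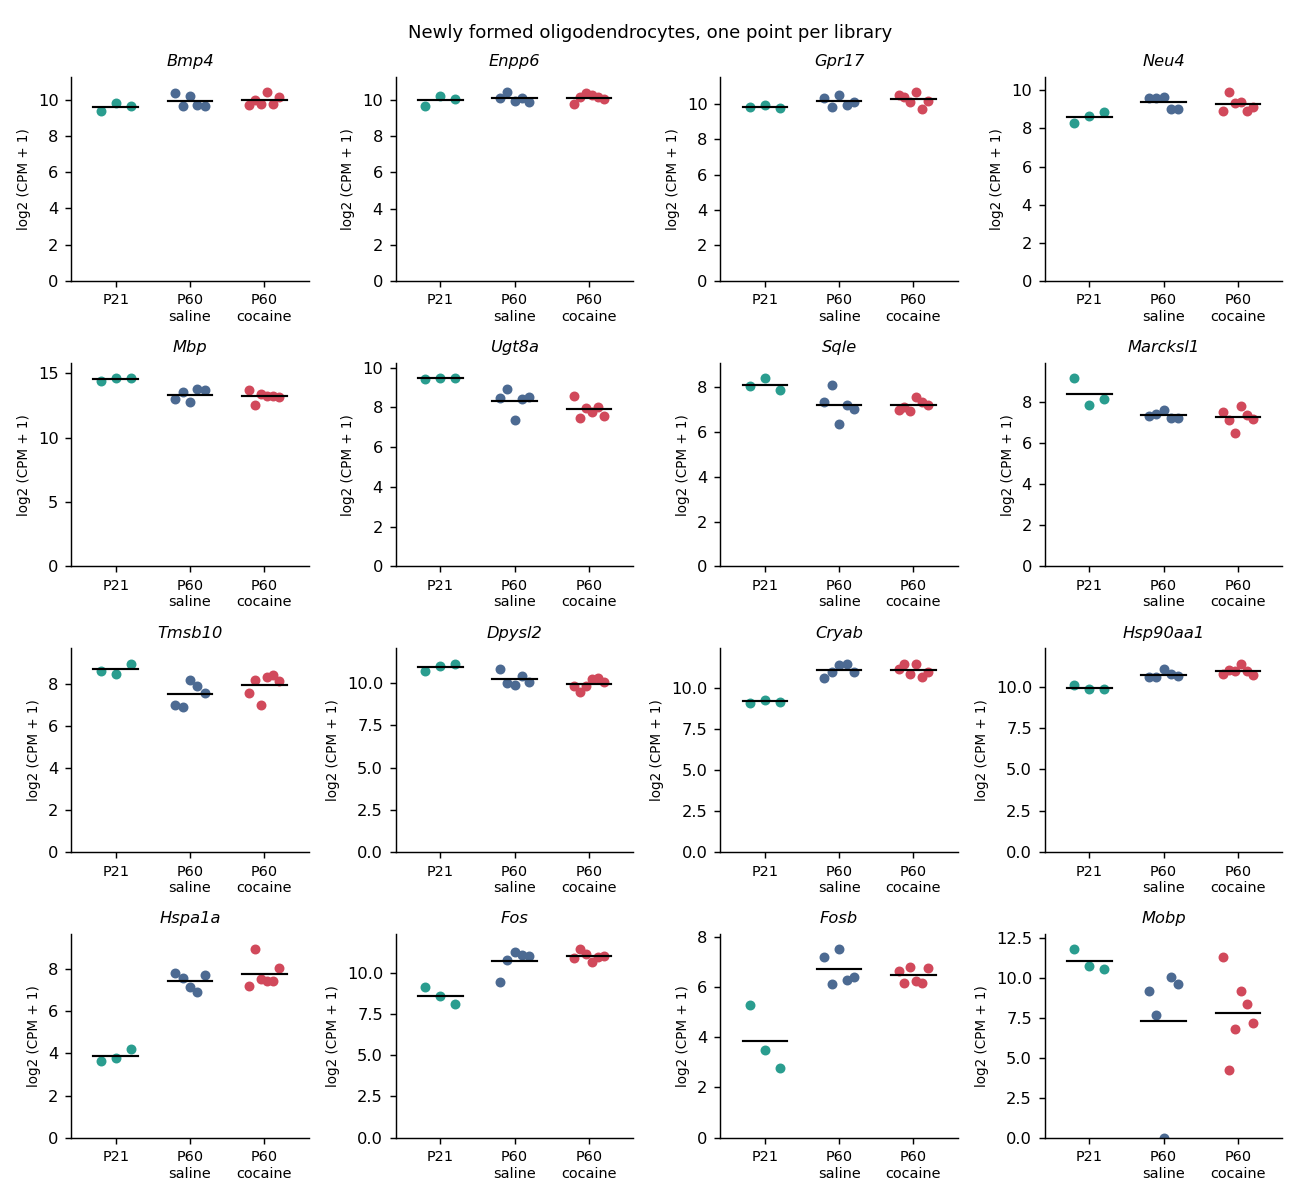
Level of 16 genes in newly formed oligodendrocytes as log2 (CPM + 1), 1 point per library for P21 (n = 3), P60 saline (n = 5) and P60 cocaine (n = 6), with a bar at the mean of the log values. Hspa1a, Cryab and Fos lie higher and Mbp and Ugt8a lower in every P60 library than in the P21 libraries, and Bmp4, Enpp6 and Gpr17 overlap.

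Of 19 stress and immediate early genes tested, 4 were called and all 4 were higher at P60, with a median change of 0.33 (15 higher, 4 lower). Over all genes tested 0.746% were called higher, the median change was -0.0028 and 50.2% were lower. Hspa1a, the inducible heat shock protein of the HSP70 family, was at 224, 187, 138 and 119 CPM in saline libraries 2, 5, 7 and 11, at 211 CPM in library 12, and at 11.6, 12.8 and 17.7 CPM at P21. No P60 library came near the P21 range. The log2 change was 3.57 (SE 0.33, adjusted p = 2.8e-06). Thinned to 2000 UMIs, 20.5% of saline and 2.18% of P21 cells held a UMI (32.7% and 3.67% without thinning), and 80.4% and 41.7% of endothelial cells, which make much of this RNA. By library the thinned shares of newly formed cells were 13.3% to 36.4% in saline and 2.5% to 2.75% at P21. Of 23 alternatives the call of Hspa1a was lost only with equal numbers of cells per library (adjusted p = 0.0852). The near-identical neighbour Hspa1b was at 0 to 17.0 CPM in saline libraries and at 0 CPM at P21, and reads shared between these 2 genes cannot be told apart.

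The 250 bases before Hspa1a are shown because the heat shock factor binds paired GAA and TTC units. Capitals mark GAANNTTC, which reads the same on both strands, in the RefSeq sequence of GRCm38.p6.
Hspa1a, chr17:34972157-34972406, minus strand: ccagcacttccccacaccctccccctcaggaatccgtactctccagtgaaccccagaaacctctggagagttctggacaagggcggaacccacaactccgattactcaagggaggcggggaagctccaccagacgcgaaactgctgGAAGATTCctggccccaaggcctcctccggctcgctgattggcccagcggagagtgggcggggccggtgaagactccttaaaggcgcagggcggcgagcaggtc
This window held 1 match, and 6.69% of the 32851 windows held at least 1.

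Cryab, the small heat shock protein alpha-B crystallin, which is abundant in mature oligodendrocytes, was the 1 gene called, as higher, of 13 late oligodendrocyte genes tested, while 0.746% of all genes tested were called higher. The other 12 were not called, and the median of the list was 0.06 (8 higher, 5 lower). It was at 1599, 2040.2, 2746, 2919 and 2062 CPM in the saline libraries and at 554, 636 and 573 CPM at P21. The groups were far apart, with a log2 change of 1.92 (SE 0.20, adjusted p = 8.8e-06). In thinned cells a Cryab UMI was found in 96.2% of saline and 39.0% of P21 cells (98.7% and 43.4% without thinning), and in 24.5% and 27.5% of endothelial cells. By library the thinned shares of newly formed cells were 92.3% to 100% in saline and 32.1% to 44.2% at P21. Cryab passed the threshold in each of the 23 alternatives. Hsp90aa1, the inducible HSP90 chaperone, averaged 1708 and 973 CPM (log2 change 0.76, SE 0.17, adjusted p = 0.0277), a call lost without saline library 7 or 11 or P21 library 2 or 3.

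Fos and Fosb, subunits of the AP-1 transcription factor, were both higher at P60. Fos was at 703 CPM in library 2, at 1785, 2437, 2157 and 2076 CPM in libraries 5, 7, 11 and 12, and at 564, 382 and 275 CPM at P21. Library 2 was the lowest at P60 and still above P21. The log2 change was 2.12 (SE 0.42, adjusted p = 0.0470). Fosb was at 68.0 to 179 CPM in saline libraries and at 38.1, 10.3 and 5.91 CPM at P21 (log2 change 2.12, SE 0.47, adjusted p = 0.0340). Leaving out 1 library ended the call of Fos for saline libraries 5, 7, 11 and 12 and P21 libraries 2 and 3 (adjusted p up to 0.170), and that of Fosb for saline libraries 2, 5, 7 and 11 and P21 library 2 (up to 0.0713). Jun, their partner, averaged 291 and 75.7 CPM and missed the threshold (adjusted p = 0.123). In other cell types, over 6 saline and 3 P21 libraries, Fos averaged 1802 CPM at P60 saline and 1829 CPM at P21 in mature oligodendrocytes. It averaged 87.2 and 223 CPM in excitatory neurons and 8765 and 7941 CPM in the endothelium. These are means given without a test, and a difference in direction among the types was not shown. The mean of Hspa1a was higher at P60 in all of these types, at 184 and 34.5 CPM in mature oligodendrocytes, 40.0 and 12.1 CPM in excitatory neurons, and 1372 and 442 CPM in endothelial cells.

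The other genes with the largest rises were Pcdhb9, Serpind1 and Ifi27l1. Ifi27l1, of a family of interferon-inducible proteins, was at 719, 544, 1051, 857 and 699 CPM in saline libraries and at 118, 177 and 204 CPM at P21, with no overlap (log2 change 2.22, SE 0.22, adjusted p = 6.1e-06). Serpind1, the serpin heparin cofactor II, was at 34.0 to 128 CPM and 5.91 to 13.7 CPM (log2 change 2.75, adjusted p = 0.00233). Pcdhb9, a clustered protocadherin whose close relatives can share reads, was at 16.0 to 122 CPM and 4.23 to 7.70 CPM (log2 change 3.24, adjusted p = 0.00607). Serpind1 and Pcdhb9 rested on few UMIs in some libraries. In the saline libraries 3 UMIs correspond to 9.18 to 51.0 CPM, and at P21 to 3.17 to 8.87 CPM. Klf6, a zinc finger transcription factor, and Wls, which carries Wnt ligands to the cell surface, were named after their values were seen. Klf6 was at 240 to 432 CPM and 79.8 to 113 CPM (log2 change 1.68, SE 0.22, adjusted p = 0.000261), and Wls at 204 to 464 CPM and 81.4 to 144 CPM (log2 change 1.31, SE 0.26, adjusted p = 0.0158).

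The largest falls were those of Yeats4, Birc2, Pfn1, Tmem93 and Gm10071, and several of these genes were also high in cocaine libraries 9 and 10. Pfn1, the actin-binding profilin, was at 64.0, 85.0, 8.15, 36.7 and 109 CPM in saline libraries and at 408, 205 and 216 CPM at P21 (log2 change -2.25, SE 0.47, adjusted p = 0.0423). In cocaine libraries 9 and 10 it was at 229 and 196 CPM, within or near the P21 range. Yeats4, a chromatin reader, was at 0 to 21.9 CPM in saline libraries, 38.4 to 65.6 CPM at P21 and 62.4 and 93.2 CPM in libraries 9 and 10. The same libraries held more Pfn1 in other cells, with 128 and 118 CPM in excitatory neurons against 32.4 to 71.8 CPM in the other 10 P60 libraries. Endothelial cells of these libraries held 222 and 207 CPM against 33.6 to 99.4 CPM. Against all 11 P60 libraries the adjusted p was 0.110 for Pfn1, 0.430 for Yeats4, 0.103 for Birc2 and 0.238 for Tmem93. With libraries 9 and 10 in place of the saline libraries, Yeats4 had a log2 change of 0.44. A score of each library, the mean log2 level in excitatory neurons of the 50 genes highest in P21 library 1 over the other P21 libraries, was 7.98 in P21 library 1, 7.20 and 7.04 in libraries 9 and 10, and 6.14 to 6.75 in the rest. With this score in the fit of saline and P21 libraries, 180 genes were called and 88 of the 91 calls were kept. The score is high in P21 library 1 by construction, and libraries 9 and 10 are not in that fit. It therefore cannot show the part in the calls of what sets libraries 9 and 10 apart.

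Markers of other cell types differed between libraries as follows. The 4 blood genes summed to 14715 CPM in library 12 and to 1649 to 7958 CPM at P21, against 60.1 to 174 CPM in the other P60 libraries, and Hbb-b1 alone reached 9466 CPM in library 12. The 8 microglial markers summed to 48.0 to 470 CPM in saline and 157 to 485 CPM in P21 libraries, with up to 7 of the 8 at 0 in a saline library. The 8 astrocyte markers summed to 85.0 to 838 CPM and 316 to 439 CPM, and the 6 excitatory markers to 128 to 416 CPM and 207 to 379 CPM. Some cocaine libraries held more. Their microglial sum was 1283 CPM in library 6 and 834 CPM in library 10, and at most 343 CPM in the others. In library 9 the astrocyte sum was 1019 CPM and the excitatory sum 991 CPM. The other cocaine libraries held at most 298 and 354 CPM of these. For the test of age, enough UMIs were held by only 3 blood, 4 microglial, 2 astrocyte and 5 excitatory genes. None of these was called. The count of 91 calls became 187 without library 12, 26 without library 11, 34 without library 7, 57 without library 2 and 56 without P21 library 2.

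The difference with age was not the same in newly formed and mature oligodendrocytes of the same libraries. The change differed between the 2 cell types in 110 of 6804 genes (1.62%) in a fit with library as a block, at an adjusted p below 0.05, and was the higher in newly formed cells for 77 (1.13%) and the lower for 33 (0.485%). Both cell types share their libraries, and a positive value means that P60 minus P21 was larger in newly formed cells. Without the block, 35 genes were called, and 61 and 69 with the block but without P21 library 2 or 3.

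Several of these genes were higher at P60 in newly formed cells and less so, or lower, in mature cells. Klf6 averaged 308 CPM at P60 saline and 94.2 CPM at P21 in newly formed cells and 117 and 195 CPM in mature cells, a difference of 2.34 on the log2 scale (SE 0.27, adjusted p = 1.2e-07). Cryab rose from 588 to 2273 CPM in newly formed and from 5230 to 7508 CPM in mature cells (difference 1.41, SE 0.21, adjusted p = 3.9e-05). Fosb was at 110 and 18.1 CPM in newly formed and 33.5 and 50.9 CPM in mature cells (difference 2.73, adjusted p = 0.000297), and Jun differed by 2.41 (adjusted p = 0.000299). The difference for Fos was 2.40 with an adjusted p of 0.220, so Fos was not shown to differ between the cell types. Wls differed by 1.44 (adjusted p = 0.00233).

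Other genes had a lower mean at P60 in mature cells and no lower mean, or one less far below, in newly formed cells. Mgll, the lipase that degrades the endocannabinoid 2-arachidonoylglycerol, was at 534 and 499 CPM (P60 saline and P21) in newly formed and 104 and 465 CPM in mature cells (difference 2.26). Barx2, a homeobox gene, was at 175 and 181 CPM and at 5.45 and 65.2 CPM (difference 3.22). Both were named after their values were seen. Enpp6 was at 1121 and 1032 CPM in newly formed cells and at 91.9 and 182 CPM in mature cells (difference 1.22, SE 0.22, adjusted p = 0.00055). Bmp4 and Neu4 also differed, by 2.81 and 3.27. Newly formed cells held means of 985 and 676 CPM at P60 saline and 784 and 390.2 CPM at P21, and mature cells 0.956 and 0.532 CPM at P60 and 8.54 and 5.44 CPM at P21. The differences of Bmp4 and Neu4 thus rested on mature means of at most 8.54 CPM. Enpp6, Bmp4 and Neu4 mark newly formed cells, and none was called between saline P60 and P21 within them. The part of the choice of cells in these differences was not tested.

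The lipid genes that differed between the cell types had the more negative change in mature cells. Ugt8a went from 706 to 344 CPM in newly formed and from 1610 to 371 CPM in mature cells (difference 1.04, SE 0.21, adjusted p = 0.00247). Of 21 cholesterol genes tested 4 differed, all in this direction, namely Sqle by 0.98, Idi1 by 1.33, Fdps by 0.85 and Sc4mol by 0.87, while 1.13% of all 6804 genes tested were called in this direction. The other 17 did not pass, and the median of the list was 0.66 (19 higher, 2 lower) against -0.0173 over all genes. Sc4mol was at 288 CPM at P60 and 243 CPM at P21 in newly formed cells and at 221 and 391 CPM in mature cells, so only the mature mean was lower at P60. Fa2h, which hydroxylates the fatty acids of myelin lipids, differed by 0.87 (adjusted p = 0.0389). The difference for Mbp was -0.44 (SE 0.26, adjusted p = 0.573), so its fall was not shown to differ between the cell types.

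**Figure D4:**
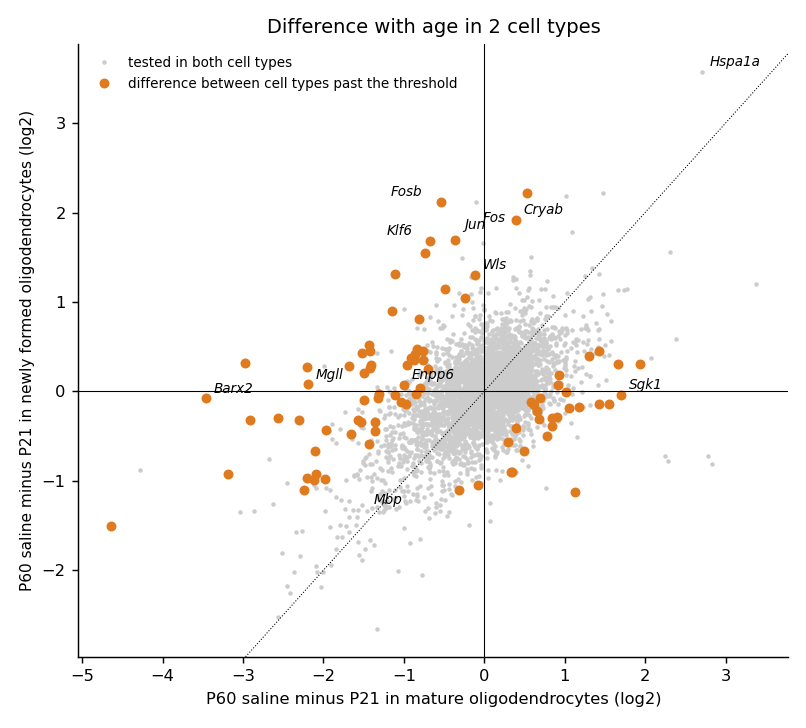
Log2 difference between P60 saline and P21 in mature (x axis) and newly formed oligodendrocytes (y axis), 1 point per gene tested in both, with the dotted line marking equal differences and orange points the genes whose difference between cell types passed the threshold. Klf6, Fosb and Jun lie above 0 for newly formed and below 0 for mature cells, Cryab lies at 1.92 and 0.40, and Mgll, Barx2 and Enpp6 lie near 0 for newly formed cells only.

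Among genes lower in the newly formed cells by this measure, Sgk1, a kinase induced by glucocorticoids, was at 472 and 464 CPM (P60 saline and P21) in newly formed and 360.2 and 111 CPM in mature cells (difference -1.52, SE 0.31). Sec11c, a subunit of the signal peptidase, was at 303 and 239 CPM and at 1679 and 419 CPM (difference -1.63, SE 0.22, adjusted p = 5.1e-06). Kif21a, a kinesin, was at 24.9 and 79.9 CPM in newly formed cells and at 115 and 50.6 CPM in mature cells (difference -2.26, adjusted p = 0.000311). Of the other large differences, those of Mgp (5.97), Npb (5.05), Rtp4 (4.97), Cyr61 (3.22), 2900055J20Rik (-3.33), Camkv (-2.64) and Lig3 (-1.84), rested on mean levels of at most 61.9 CPM in newly formed cells.

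Cocaine and saline were compared within each time point and over all of them, in a fit of the 11 P60 libraries with at least 10 newly formed cells. These comparisons use the saline libraries that also entered the comparison of ages. Of 3617 genes tested, 1 was called at maintenance (0.0276%), 0 at 48 h (0%), 2 at 15 days (0.0553%) and 0 over all time points (0%). At an unadjusted p below 0.05 the edgeR counts were 199, 131, 171 and 166 genes, and DESeq2 called 1, 0, 2 and 0, its 2 genes at 15 days being other genes, both lower with cocaine. The median change of the 6 stage markers was -0.06, 0.18, -0.02 and 0.01 in the same order, and none of the 20 myelin genes tested was called. At 15 days the myelin genes had a median change of -0.35 (2 higher, 18 lower). The 18 genes of cholesterol synthesis tested had one of -0.43 (2 higher, 16 lower), against 0.0049 and 49.3% lower over all genes tested. The cholesterol genes were also mostly lower at maintenance (median -0.40, 4 higher, 14 lower) and 48 h (-0.11, 6 higher, 12 lower). Over all time points their median was -0.35 (3 higher, 15 lower). Of all genes tested 47.7%, 49.2% and 45.6% were lower in the same order. The myelin medians at maintenance and 48 h were 0.15 and 0.12. None of the genes of either list was called in any of these comparisons. The 7 microglial markers tested had a median change of 5.71 at 48 h (7 higher, 0 lower). It was 1.11 at 15 days (6 higher, 1 lower) and 2.73 over all time points (7 higher, 0 lower). At maintenance 2 were higher and 1 lower. None of the 7 was called, and the part of such RNA in the cocaine comparisons was not tested.

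Bmp4, Enpp6 and Mbp were not called at any time point. Bmp4 was at 848, 933 and 1363 CPM (lowest, median and highest of 6 cocaine libraries), within or near the saline range of 794 to 1311 CPM, and its change over all time points was -0.02 (SE 0.15). Enpp6 was at 894, 1154 and 1333 CPM (change 0.03, SE 0.14). Mbp was at 5856, 9529 and 12943 CPM (change -0.05, SE 0.23), with the time points at 0.29, 0.17 and -0.61. At 15 days the treatments did not overlap for Mbp, at 9065 to 9376 CPM with cocaine and 13378 to 13899 CPM with saline. The 10 markers of mature oligodendrocytes moved the same way, summing to 745 and 606 CPM in cocaine libraries 9 and 10 (2 and 3 markers at 0) and to 1918 and 1224 CPM in saline libraries 11 and 12 (2 and 1 at 0), and of the 5 tested 4 had a negative change and none was called. Over all time points these sums ran from 331 to 3249 CPM with cocaine and from 236 to 1918 CPM with saline, and their part in the difference at 15 days was not tested.

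Fos was the gene called at maintenance. The only saline library of that phase with enough cells, library 2 with 11 cells, was at 703 CPM, and cocaine libraries 1 and 4 were at 1877 and 2754 CPM. The log2 change was 1.73 (SE 0.32, adjusted p = 0.0339), under the assumption that the single saline library varies as the other groups do. All other saline libraries lay between 1785 and 2437 CPM, which covers library 1. At 48 h and 15 days the changes of Fos were -0.10 and -0.10. Without cocaine library 4 its adjusted p was 0.0664, and with the library score in the fit 0.0857.

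Snf8, a subunit of the ESCRT-II sorting complex, and Mrfap1, a partner of the MORF4 family of chromatin proteins, were called at 15 days. Snf8 was at 139 and 97.9 CPM in cocaine libraries 9 and 10 and at 15.3 and 21.9 CPM in saline libraries 11 and 12 (log2 change 2.61, SE 0.49, adjusted p = 0.0362). Mrfap1 was at 575 and 545 CPM and at 165 and 288 CPM (log2 change 1.27, SE 0.25, adjusted p = 0.0362). Libraries 9 and 10 were the highest of all P60 libraries for both genes, and not in newly formed cells alone. In these libraries excitatory neurons held 153 and 141 CPM of Snf8 (at most 80.7 CPM in any other P60 library). Its level there was 100.04 and 92.03 CPM in endothelial cells (at most 54.2 CPM elsewhere) and 96.4 and 85.6 CPM in mature oligodendrocytes (at most 49.2 CPM elsewhere). Treatment and library cannot be told apart at this time point. DESeq2 called neither gene, and both calls were lost without library 9, 10 or 11. With the library score in the fit, a setting chosen after seeing the data, the log2 changes were 1.94 for Snf8 and 0.39 for Mrfap1 (adjusted p = 0.9997 for each). Both genes are also among those lower at P60 saline than at P21.

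**Figure D5:**
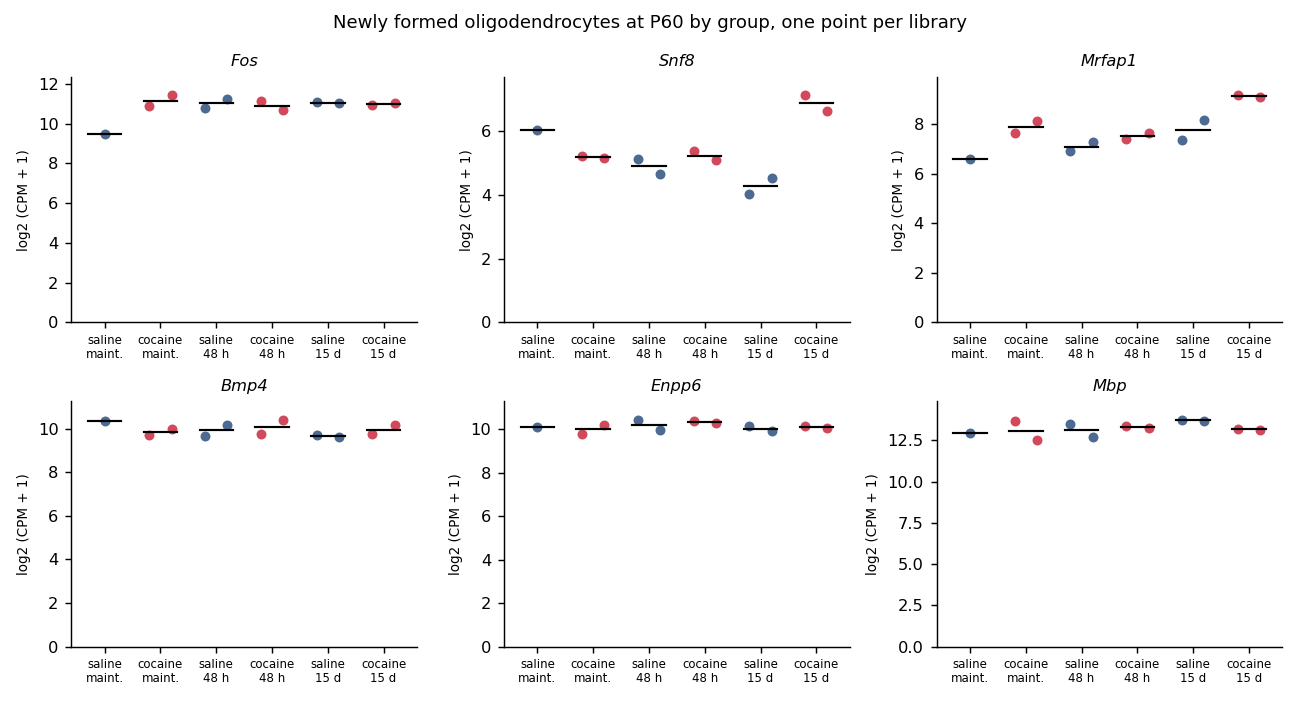
Level of 6 genes in newly formed oligodendrocytes as log2 (CPM + 1) by treatment and time point, 1 point per library (saline at maintenance has 1 library, the other groups 2) with a bar at the mean. Fos is lowest in the single saline library of maintenance, Snf8 and Mrfap1 are highest in both cocaine libraries of 15 days, and Mbp is lower in both cocaine libraries of 15 days than in both saline libraries of that time, although it, Bmp4 and Enpp6 passed the threshold in no comparison of cocaine with saline.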

How the data were processed

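Single-cell libraries were made by the authors with the 10X Chromium platform, in which UMIs count captured molecules. The deposited values are raw UMI counts per gene and cell of 26145 genes, made by the authors with Cell Ranger on mm9, without normalization. The deposited table of cells, made with Seurat 2.1.0 per the submitters' processing notes, gives each cell's cluster, class and the fraction of mitochondrial UMIs. The authors removed cells with a high mitochondrial share or few genes. Their methods give neurons a higher gene minimum than other cells at P60 and a single minimum at P21, though their results state the same criteria. They also removed likely doublets, at P60 by a limit on genes per cell and by hand after clustering. No other filter on cells was applied here.

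Members, gene lists and tests were chosen with earlier results of these data known. Named genes are those of 24 lists, the 5 largest rises and 5 largest falls among called genes whose libraries did not overlap, and the 15 leading genes, and others are marked. The authors' class column was an alternative. The 13 mitochondrial and 143 ribosomal protein genes (9.52% to 12.2% of UMIs) were left out, and counts were summed per library over newly formed cells, where a library needed 10 cells, so library 3 was dropped. edgeR 4.0.16 in R 4.3.3 was used with filterByExpr, TMM and robust quasi-likelihood fits, with a call at an adjusted p below 0.05 and above 1.5-fold (no fold limit for the difference between cell types). DESeq2 1.42.0 was an alternative, as were another normalization, no filter, other sets of libraries or cells, and leaving out each library. Shares were compared by exact permutation with python 3.11.15 and scipy 1.17.1, and intervals are exact 95% binomial ones (Clopper-Pearson) that cover counting error only. CPM are UMIs of a gene per 1000000 UMIs of the genes used. The scripts were tested on simulated data. P-values measure the spread between libraries of pooled mice. Gene identifiers are those of the files (Ensembl genes of NCBIM37), and positions come from the GENCODE annotation of that build. Some genes of the lists are not reported here, though they count in the totals.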

Additional observations from a re-analysis of the deposited data

Results flagged for a closer look

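In 10 of 106 groups of libraries tested, 1 library stood apart from the rest by Dixon's criterion, which chance meets in about 1 in 20 groups. Among the saline libraries these were Cyp51 at 256 CPM in library 2, Mgp at 15.3 CPM in library 11, and Sec11c at 448 CPM and Sema5a at 114 CPM in library 7. Among the cocaine libraries they were Birc2 at 181 CPM in library 1, Ifi27l1 at 1359 CPM, Hspa1a at 488 CPM, Itpr2 at 261 CPM and Fa2h at 34.9 CPM in library 4, and Cyr61 at 87.1 CPM in library 4. Library 4 held 14 newly formed cells and the Pdgfra level of 122 CPM.

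The change with age differed between newly formed and mature oligodendrocytes, by the edgeR test of the interaction, for the genes of the lists and of the largest changes as follows, with 28 given here. Higher values in newly formed cells were found for Mgp (5.97), Npb (5.05), Rtp4 (4.97), Aqp4 (3.57), Neu4 (3.27), Cyr61 (3.22), Bmp4 (2.81), Fosb (2.73), Jun (2.41) and Id3 (2.04), on the log2 scale. Those of Neu4 and Bmp4 rested on low levels in mature cells, as given above. Smaller ones were those of Sema5a (1.56), Cryab (1.41), Idi1 (1.33), Enpp6 (1.22), Ugt8a (1.04), Sqle (0.98), Sc4mol (0.87), Fa2h (0.87), Fdps (0.85) and Sirt2 (0.82). Lower values were found for Cadm1 (-0.93), Sema6d (-1.30), Sgk1 (-1.52), Sec11c (-1.63), Lig3 (-1.84), Kif21a (-2.26), Camkv (-2.64) and 2900055J20Rik (-3.33).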

How the results depend on the processing

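The differences in share kept their direction and their side of the threshold under every alternative run, from -4.11 to -3.60 points of retained cells for age and 0.0988 to 0.386 points for cocaine when a library was left out, and from -48.8 to -36.5 points of the lineage. The 91 calls for age became 328 with no filter on low counts, 8 with Bonferroni, 16 with equal numbers of cells, 38 with at least 20 cells, 284 by the class column, 157 with all P60 libraries and 47 with P21 libraries 2 and 3 summed. Leaving out a library gave 26 (without library 11) to 187 (without library 12). DESeq2 gave 88 calls, 73 of them shared. The library score as a covariate, chosen after seeing the data like the next 3 settings, gave 180 calls for age, 2 for cocaine over all time points, 0 at maintenance and 3 at 15 days (all lower). Cells with a Bmp4 or Enpp6 UMI gave 75 calls for age. Directions turned for Cyp51 in cells without a Mobp UMI (0.0482) and for Yeats4 (0.44) and Tmem93 (0.0044) with libraries 9 and 10 in place of saline. With only the libraries of the time point, cocaine gave 2 calls at maintenance and 7 at 15 days. Leaving out a library gave 1 to 3 calls at maintenance, 0 to 1 at 48 h, and 0 (without library 10) to 30 (without library 12) at 15 days. Without the library block, 35 genes differed between the cell types, and 61 to 110 when a library was left out. The causes were not tested. In the cocaine comparison no paired analysis was possible because replicate numbers only follow the order of the samples. Depth limits genes under 52.3 CPM in libraries of 11 to 14 cells.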
